A study of Caenorhabditis elegans with 6 samples.

Results

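Nuclear hormone receptors of Caenorhabditis elegans were examined in whole worms kept with or without albumin-coated iron oxide nanoparticles. The members were all probe sets whose platform gene symbol is nhr- followed by a number, with nhr-23 set aside. These were 274 of 26192 tested probe sets. Of them, 270 carry 1 gene each and are counted and named below, and 4 carry several gene entries and are described apart. Wild-type N2 hermaphrodites were raised for 48 h on plates seeded with Escherichia coli OP50, from L1 larvae to L4. The next 24 h were spent at 20 °C in 50% M9 buffer, which was plain (control, 3 arrays) or contained BSA-SPIONs at 500 µg/mL (exposed, 3 arrays). These particles are superparamagnetic iron oxide with a monolayer coat of bovine serum albumin. All 6 samples spent these hours in buffer. No sample with albumin alone or with uncoated particles was analysed here, so the particle, its coat and its load cannot be told apart. Values are log2 RMA expression of whole-worm RNA, in which fewer cells of a type and less RNA per cell cannot be told apart. The labels do not say whether replicates came from separate cultures, so the p-values rest on a spread between samples that may be only technical.

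Nuclear hormone receptors are transcription factors that bind DNA through a pair of zinc fingers and, through a second domain, often respond to small lipophilic molecules such as steroids, fatty acids or bile acids. The C. elegans genome holds an unusually large family, most of which arose by duplication of an ancestor related to the vertebrate receptor HNF4 and lies in groups on chromosome V. A smaller set has counterparts across animals. Receptors with a known role act in molting and developmental timing, fat metabolism and the fasting response, detoxification, and the sensing of metals and of products of bacteria, and most of the family has no assigned role or ligand.

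With all 6 arrays as deposited, a larger share of the receptors was lower in exposed worms, and a smaller share higher, than over the array as a whole, and few single genes passed. The larger share lower at the adjusted p did not hold in every setting tried. The list itself was given no test. In limma, 13 members were lower and 2 higher at an adjusted p under 0.05, where 2.6% of all tested probe sets were lower and 1.06% higher. These are 4.81% and 0.741% of the 270 members. By unadjusted p, under 0.05, there were 43 lower (15.9%, against 12.4% of all probe sets) and 12 higher (4.44%, against 10.1%). By a looser rule, which asks for such an unadjusted p and a change of at least 1.5-fold, 39 members were lower (14.4%, against 11.1% of all probe sets) and 9 higher (3.33%, against 7.97%). The median log2 change of the members was -0.06, against 0.05 over all tested probe sets. All 3 exposed arrays lay below all 3 controls for 49 members (18.1%, against 13.5% of all probe sets) and above them for 24 (8.89%, against 14.6%).

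These counts turned on which arrays entered and how they were scaled. Without control 1, control 2, exposed 1 or exposed 3, limma called 0 members in either direction (by unadjusted p, 8 to 10 higher and 38 to 41 lower), where 0.164% to 0.89% of all probe sets were lower and 0.0229% to 0.214% higher. Without exposed 2 it called 4 members lower (1.48%, against 2.1% of all probe sets) and 1 higher (0.37%, against 1.02%). Without control 3 it called 17 lower (6.3%, against 5.1%) and 3 higher (1.11%, against 2.52%). With all arrays set to the same median it called 2 lower (0.741%, against 1.52%) and 4 higher (1.48%, against 2.28%). The members' share lower at the adjusted p was thus below that of all probe sets in the 4 settings with 0 calls, without exposed 2, and with equal medians. It was also below with the replicate number as a block (1.85%, against 2.49%). By the looser rule, equal medians gave 27 lower (10%, against 6.96%) and 16 higher (5.93%, against 16.2%). In that scaling the median of all probe sets moved to 0.26 and that of the members to 0.15.

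The members differed by signal. The mean signal over the 6 arrays was at or above the median of all tested probe sets, 3.87, for 143 members and below it for 127. Of the 143 brighter members, 104 changed in the negative direction. Their median log2 change was -0.31, against 0.04 for all brighter probe sets. By the looser rule 39 of these 143 were lower (27.3%, against 16.6% of all brighter probe sets) and 6 higher (4.2%, against 11.7%). Of the 127 dimmer members, limma called 0 at the adjusted threshold, and by unadjusted p 4 were higher (3.15%, against 6.05% of all dimmer probe sets) and 0 lower (against 6.71%). Their median was 0.03. Low RMA values are compressed, so a change in these 127 would be understated. The 10 members annotated as pseudogenes were all among the dimmer ones and 0 of them passed in limma, also by unadjusted p.

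**Figure D1:**
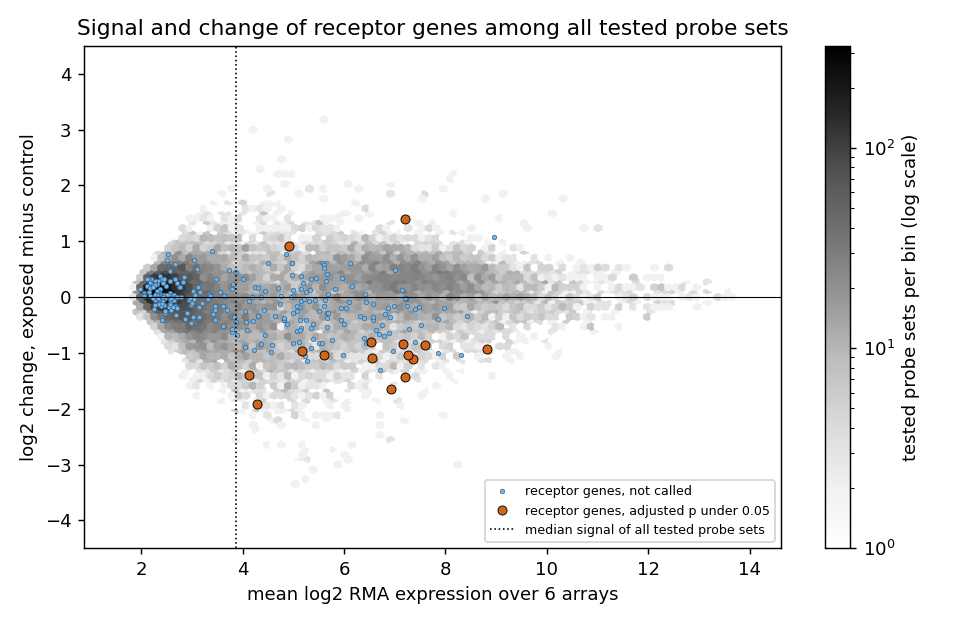
Mean log2 RMA expression over the 6 arrays (x axis) against the log2 change, exposed minus control (y axis), with all tested probe sets as grey bins and the 270 receptor genes as points. Orange points are the 15 members past the adjusted threshold, 13 below and 2 above 0, and the dotted line marks the median signal of 3.87.

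Cell type markers moved between the groups too. Mean levels over a list of 11 neuron markers were 7.54 to 8.25 in controls and 6.58 to 6.65 in exposed arrays (6 lower, 0 higher in limma), and over 10 body wall muscle markers 8.67 to 9.29 and 7.75 to 8.20 (3 lower, 0 higher). Over 11 sperm markers they were 3.20 to 3.49 and 4.01 to 4.52 (4 higher, 0 lower). Over 10 germline markers they were 6.999 to 7.78 and 7.78 to 8.39, with all 10 changes positive but 0 called in limma (by unadjusted p, 7 higher and 0 lower). The intestine markers lay at 7.91 to 8.03 and 7.75 to 7.96, the hypodermis markers at 5.88 to 6.35 and 5.71 to 6.13, so the means of these groups overlapped. In limma 1 intestine marker was lower and 0 higher (by unadjusted p, 2 lower and 1 higher), the intermediate filament gene ifb-2 (log2 change -1.16, adjusted p = 0.0295). Of the hypodermis markers 1 was lower and 0 higher (by unadjusted p, 2 lower and 1 higher), the kinase gene nekl-2 (-1.30, adjusted p = 0.0209). The intestinal actin gene act-5 had a log2 change of -1.53 (adjusted p = 0.0643 in limma). Others went the opposite way: 4 intestine changes were positive and 3 negative (median 0.06), and 4 hypodermis changes were positive and 5 negative (median -0.09). The intestine marker ges-1 had a change of 0.66 and the hypodermis marker elt-1 of 0.56, both without overlap (adjusted p = 0.122 and 0.112 in limma). Over all tested probe sets 2.6% were lower and 1.06% higher at the adjusted p in limma, and 12.4% and 10.1% by unadjusted p. In each list only a few genes stand for the tissue, and the part of these lists in the receptor values was not tested.

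The steepest fall was in nhr-82. It read 5.16, 4.95 and 5.61 in controls 1 to 3 and 2.65, 4.02 and 3.29 in exposed 1 to 3. The exposed arrays spread widely but all lay below the lowest control. The fall was 3.77-fold (log2 change -1.92 ± 0.36 SE, adjusted p = 0.038 in limma). Next was nhr-31, a receptor needed for the tubule of the excretory cell, where it acts on genes of the vacuolar ATPase. It read 7.72, 8.10 and 7.39 in controls and 6.06, 6.65 and 5.59 in exposed arrays, so that the highest exposed array stayed below the lowest control. The fall was 3.12-fold (log2 change -1.64 ± 0.31 SE, adjusted p = 0.0395 in limma).

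Another pair of large falls were in genes of chromosome V. The gene nhr-103 read 7.997, 7.70 and 8.06 in controls and 6.72, 6.78 and 5.98 in exposed arrays, 2.69-fold lower (log2 change -1.43 ± 0.26 SE, adjusted p = 0.0339 in limma). The gene nhr-195 read 4.94, 4.44 and 5.12 in controls and 3.55, 3.56 and 3.20 in exposed arrays, 2.63-fold lower (log2 change -1.40 ± 0.23 SE, adjusted p = 0.0276 in limma). In both, all exposed arrays lay below all controls.

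Among the called falls, those near 2-fold were tighter between arrays, as a smaller change passes the threshold only with a smaller error. The gene nhr-18 had the smallest p of the falls, with 7.27, 7.08 and 6.93 in controls and 5.98, 6.08 and 5.93 in exposed arrays (2.13-fold lower, adjusted p = 0.0256 in limma). The gene nhr-136 had a control mean of 5.66 ± 0.04 and an exposed mean of 4.69 ± 0.11 (SD, n = 3, 1.96-fold lower, adjusted p = 0.0291 in limma), and its controls hardly differed from each other. The other falls of this size were nhr-21 (2.15-fold, from 7.90 ± 0.27 to 6.80 ± 0.17), nhr-3 (2.05-fold, from 7.78 ± 0.21 to 6.74 ± 0.22), nhr-109 (2.04-fold, from 6.11 ± 0.22 to 5.08 ± 0.20) and nhr-97 (1.91-fold, from 9.29 ± 0.24 to 8.35 ± 0.04). Their adjusted p-values in limma were 0.0382, 0.0423, 0.0419 and 0.0449. The smallest falls were in nhr-92 (1.8-fold, from 8.03 ± 0.05 to 7.18 ± 0.15), nhr-35 (1.78-fold, from 7.59 ± 0.09 to 6.76 ± 0.16) and nhr-143 (1.74-fold, from 6.93 ± 0.10 to 6.12 ± 0.09). Their adjusted p-values in limma were 0.0449, 0.0499 and 0.0487, close to the threshold.

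At the adjusted threshold 2 members were higher (0.741%, against 1.06% of all probe sets). The gene nhr-2, which is needed in the early embryo, read 6.64, 6.43 and 6.45 in controls and 8.04, 7.52 and 8.14 in exposed arrays. Controls were tight, and the lowest exposed array lay well above them all. The rise was 2.63-fold (log2 change 1.39 ± 0.22 SE, adjusted p = 0.0236 in limma), and it was the smallest p among the members. The other was nhr-244, with 4.33, 4.63 and 4.40 in controls and 5.29, 5.25 and 5.55 in exposed arrays (1.88-fold higher, adjusted p = 0.0449 in limma). Beside nhr-2, the mean over 11 embryo markers was 4.07, 4.03 and 4.67 in controls and 4.70, 4.59 and 4.37 in exposed arrays. The embryo groups overlapped, with control 3 among the exposed arrays, and limma called 0 of these markers (by unadjusted p, 3 higher and 1 lower). Over 11 oocyte and eggshell markers the means were 8.08 to 8.87 in controls and 8.65 to 9.41 in exposed arrays, also overlapping, with 0 called in limma (by unadjusted p, 5 higher and 0 lower). By unadjusted p 10.1% of all probe sets were higher and 12.4% lower. The part of both lists in the nhr-2 value was not tested.

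**Figure D2:**
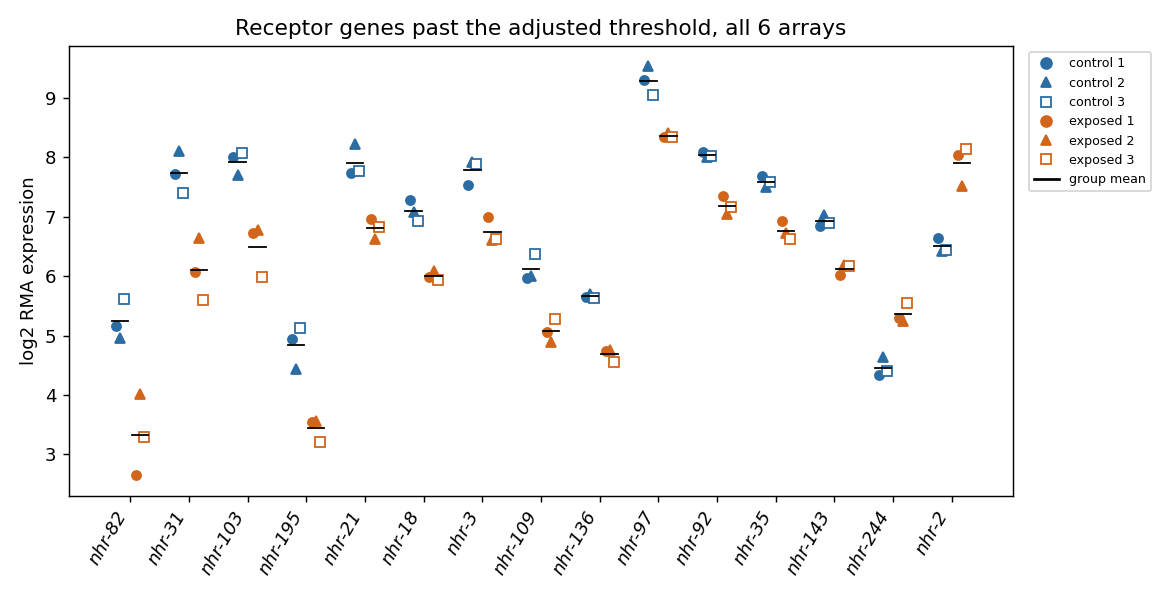
Log2 RMA expression (y axis) of the 15 receptor genes past the adjusted threshold, ordered by change, with 1 symbol per array and a bar at each group mean (n = 3). In all 15 the exposed arrays lie entirely on one side of the controls, below them for 13 and above them for nhr-244 and nhr-2. Picking genes by this threshold favours such separation, which 13.5% (below) and 14.6% (above) of all tested probe sets showed.

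No called member kept its call without each array in turn. Each kept its direction in all 17 alternatives tried. The groups of all 15 did not overlap, so leaving out, averaging or weighting arrays could not have turned a direction. Among the 11 alternatives that leave out no single array, the number that kept a member's call ran from 3, for nhr-143, to 11, for nhr-2. The log2 change of nhr-2 ran from 1.24 to 1.60 over the 17 alternatives, with adjusted p-values of 0.0083 to 0.0991, and that of nhr-82 from -2.27 to -1.58 (0.016 to 0.122). For nhr-31 the range was -1.91 to -1.39 (0.00967 to 0.137), for nhr-18 it was -1.18 to -0.89 (0.0062 to 0.107).

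Of 10 measured receptors with counterparts across animals, 0 were called in limma (by unadjusted p, 0 higher and 1 lower, against 10.1% and 12.4% of all probe sets). Their median log2 change was -0.38, with 8 of 10 negative, where 104 of the 143 brighter members were negative. The one at an unadjusted p under 0.05 was nhr-41, the counterpart of the fly receptor DHR78, with 5.74, 6.25 and 5.51 in controls and 4.78, 5.16 and 4.14 in exposed arrays (adjusted p = 0.0908 in limma). Its groups did not overlap, but exposed 2 and control 3 lay close. The molting and epidermal regulator nhr-25, of the SF-1 and FTZ-F1 class, had a control mean of 7.08 ± 0.10 and an exposed mean of 6.73 ± 0.14 (SD, n = 3, and in this order below; adjusted p = 0.283 in limma). For nhr-85, the counterpart of fly E75 and of Rev-erb and a part of the larval timing oscillator, the values were 5.33 ± 0.47 and 4.92 ± 0.50, a difference smaller than the spread within a group. The spermatheca regulator nhr-6, of the NGFI-B class, was at 4.08 ± 0.45 and 3.51 ± 0.33, and nhr-91, of the GCNF class, at 7.02 ± 0.57 and 6.37 ± 0.43. Those of nhr-67, the tailless counterpart that acts in the anchor cell and uterus, were 5.21 ± 0.32 and 5.29 ± 0.22, and those of nhr-48 were 5.66 ± 0.19 and 5.72 ± 0.30. The remaining conserved receptors, nhr-111 and nhr-239, had log2 changes of -0.11 and -0.28 at low signal.

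Of 10 measured receptors of fat and nutrient metabolism, 0 were called in limma (by unadjusted p, 2 higher and 1 lower, against 10.1% and 12.4% of all probe sets). Their median was -0.30, with 8 of 10 changes negative, where 104 of the 143 brighter members were negative. The central regulator of the fasting response and of fatty acid oxidation, nhr-49, read 7.64, 7.59 and 7.27 in controls and 7.42, 7.35 and 7.08 in exposed arrays (log2 change -0.22 ± 0.19 SE, adjusted p = 0.554 in limma). The groups overlapped and the difference was about its own error. Its partners did not pass either. The desaturase regulator nhr-80 was at 5.63 ± 0.25 and 5.14 ± 0.35, nhr-66 at 7.22 ± 0.07 and 7.21 ± 0.27, and nhr-13 at 5.29 ± 0.35 and 5.89 ± 0.12 (adjusted p = 0.288, 0.972 and 0.168 in limma). For nhr-76, which acts in fat loss driven by serotonin, the values were 4.67 ± 0.17 and 5.27 ± 0.33 (adjusted p = 0.171 in limma).

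The pair that switches on the propionate shunt, an alternative route of propionate breakdown used when vitamin B12 is low, was nhr-10 and nhr-68. The first read 6.82, 7.20 and 7.37 in controls and 6.67, 6.27 and 6.40 in exposed arrays, without overlap (log2 change -0.69 ± 0.22 SE, adjusted p = 0.122 in limma). The second was at 6.97 ± 0.44 and 6.66 ± 0.14, with overlapping groups. Of the 5 shunt enzymes, 0 were called in limma, with a median of 0.11 (by unadjusted p, 0 higher and 1 lower, against 10.1% and 12.4% of all probe sets). The first enzyme acdh-1 was at 6.29 ± 0.40 and 5.68 ± 0.31, and the dehydrogenase alh-8 at 10.71 ± 0.31 and 9.71 ± 0.32 (adjusted p = 0.23 and 0.0726 in limma). The other members of this list, nhr-64, nhr-69 and nhr-114, had log2 changes of -0.42, -0.40 and -0.29.

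Receptors tied to metals, toxins, pathogens and stress did not pass either. Of 7 measured, 0 were called in limma, with a median of -0.20 (by unadjusted p, 1 higher and 1 lower, against 10.1% and 12.4% of all probe sets). Loss of nhr-14 is known to change iron uptake through the importer smf-3, and nhr-14 read 7.23, 7.15 and 6.53 in controls and 6.95, 6.75 and 6.60 in exposed arrays (log2 change -0.20 ± 0.24 SE, adjusted p = 0.661 in limma). The exposed arrays lay inside the control range. Its linked gene smf-3 was at 5.98 ± 0.17 and 5.82 ± 0.34, and the signs of both changes turned with equal array medians. The ferritin gene ftn-1 was at 9.05 ± 0.33 and 9.77 ± 0.02 (adjusted p = 0.104 in limma). The sensor of a bacterial phenazine, nhr-86, read 6.91, 6.85 and 6.55 in controls and 7.39, 7.14 and 7.23 in exposed arrays, without overlap but with an adjusted p of 0.182 in limma. The xenobiotic and sterol receptor nhr-8 was at 7.77 ± 0.16 and 7.28 ± 0.29, and nhr-176, which acts in the breakdown of the drug thiabendazole, at 5.07 ± 0.06 and 5.33 ± 0.10 (adjusted p = 0.225 and 0.405 in limma). For nhr-45, which acts in the response to mitochondrial damage, the values were 6.76 ± 0.51 and 6.02 ± 0.39, and for nhr-42 they were 5.16 ± 0.34 and 4.996 ± 0.19. The hypoxia target nhr-57 read 7.72, 7.19 and 8.50 in controls and 6.86, 7.17 and 6.97 in exposed arrays, with control 3 highest and control 2 next to exposed 2.

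Among receptors of development and cell fate, nhr-2 rose and the other 6 measured did not pass in limma. By unadjusted p, 2 of them were lower, against 12.4% of all probe sets. In the nematode Pristionchus pacificus nhr-1 and nhr-40 act in the switch between mouth forms. In these worms nhr-1 read 6.76, 6.84 and 5.90 in controls and 5.83, 5.41 and 5.15 in exposed arrays, and nhr-40 read 8.54, 8.79 and 7.72 against 7.19, 7.68 and 7.15 (adjusted p = 0.108 and 0.118 in limma). In both, control 3 lay next to the exposed arrays, and without it the adjusted p-values in limma were 0.0285 and 0.0262, both lower. In that setting 5.1% of all probe sets were lower at the adjusted p, against 2.6% with all arrays. Leaving out any other single array did not call them. Their adjusted p-values in limma reached 0.277 and 0.293 over the 17 alternatives. Of a list of 8 receptors written as expressed in the seam cells of the epidermis, an assignment not checked here, 7 were measured apart. Apart from nhr-82, they did not pass: nhr-74 was at 4.46 ± 0.71 and 5.23 ± 0.17 (adjusted p = 0.245 in limma), and nhr-72, nhr-75, nhr-77, nhr-81 and nhr-89 had mean signals under the median and log2 changes from -0.36 to 0.33.

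**Figure D3:**
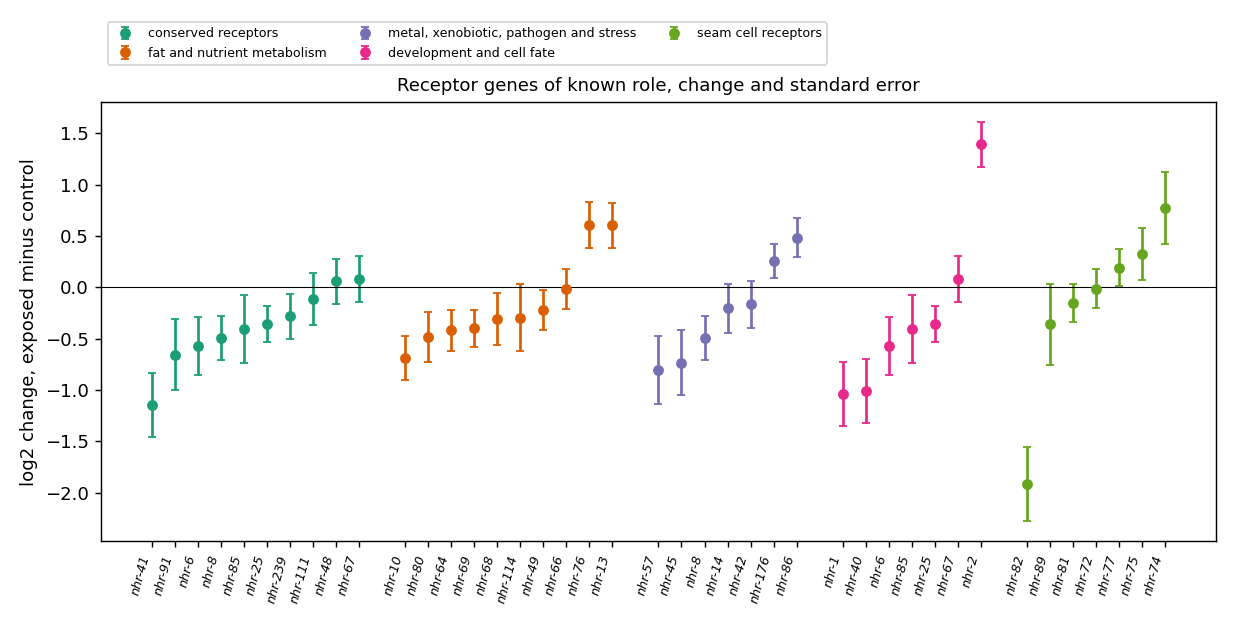
Log2 change, exposed minus control, with its standard error (y axis), for receptor genes in 5 lists by role, ordered by change within each list. Genes that belong to a pair of lists appear in both, and only nhr-2 at 1.39 and nhr-82 at -1.92 passed the adjusted threshold.

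The remaining members with small p-values or high signal, named by rule, did not pass. Among the positive changes, nhr-60, whose protein lies at the nuclear periphery, had means of 2.99 ± 0.20 (controls) and 3.82 ± 0.10 (exposed), and nhr-257 of 2.14 ± 0.10 and 2.90 ± 0.12 (adjusted p = 0.0564 and 0.0584 in limma). Both separated the groups near the floor of the scale. The log2 changes of nhr-55, nhr-22 and nhr-234 were 0.62, 0.60 and 0.67 (adjusted p = 0.125, 0.157 and 0.168 in limma). Of the 8 members with the highest mean signal, nhr-97 and nhr-92 fell. The others had log2 changes of -1.03 (nhr-88), -1.01 (nhr-40), -0.40 (nhr-69), -0.35 (nhr-122), -0.19 (nhr-4, positive with equal array medians) and 1.08 (nhr-17). Signals of different probe sets are not levels that can be set against each other.

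Several members depended on control 3. It lay at least 1 log2 unit from the mean of the other controls for 21 members (7.78%, against 10.5% of all tested probe sets), 9 above and 12 below. The other arrays lay that far from their group for 3 to 6 members (1.11% to 2.22%, against 2.48% to 7.82% of all tested probe sets). The 7.82% was for exposed 3. The 6 members in which control 3 was farthest off were picked after their values were seen. The gene nhr-17 read 7.07, 7.51 and 10.64 in controls and 9.55, 9.39 and 9.54 in exposed arrays. Its exposed arrays were tight and lay between the controls. The log2 change was 1.08 ± 0.84 SE (adjusted p = 0.492 in limma), and without control 3 it was 2.20 (adjusted p = 0.0074). The gene nhr-7 read 6.31, 6.88 and 4.10 in controls and 4.69, 4.59 and 4.83 in exposed arrays, with a log2 change of -1.06 (adjusted p = 0.379 in limma), or -1.89 without control 3 (adjusted p = 0.0112). For nhr-105 the values were 7.52, 8.26 and 6.32 in controls and 6.21, 6.33 and 5.65 in exposed arrays, with a log2 change of -1.30 (adjusted p = 0.164 in limma), or -1.83 without control 3 (adjusted p = 0.0238). In these 3 genes control 3 resembled the exposed arrays more than the other controls. In nhr-150, nhr-137 and nhr-16 control 3 lay outside all other arrays, at 4.35, 6.55 and 3.34, and the sign of the change turned without it.

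**Figure D4:**
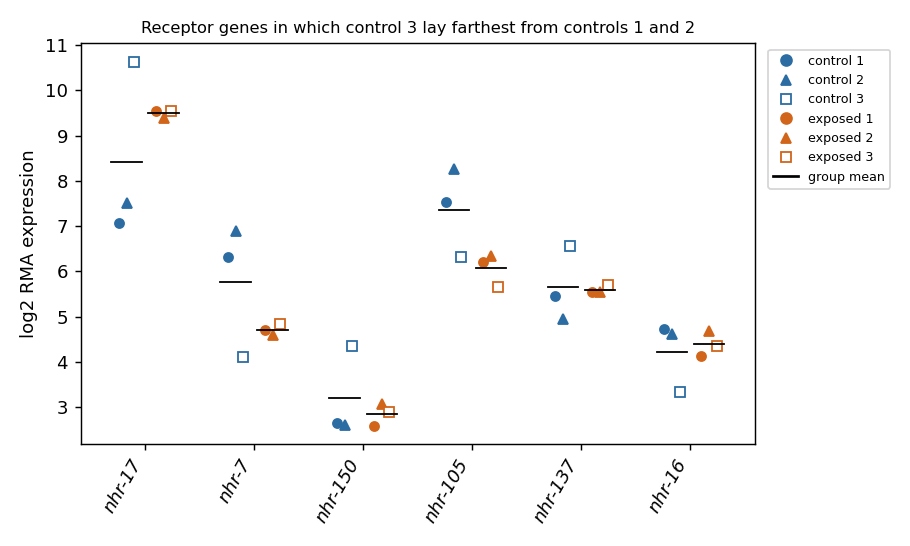
Log2 RMA expression (y axis) of the 6 receptor genes in which control 3 (open blue square) lay farthest from controls 1 and 2, with 1 symbol per array and a bar at each group mean (n = 3). In nhr-17, nhr-7 and nhr-105 the exposed arrays lie near or towards control 3 and away from the other controls.

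Receptor genes in runs of neighbours and those outside them were lower in like shares. RefSeq (assembly WBcel235) places 170 of the 270 on chromosome V, 34 on IV, 23 on X, 19 on I, 16 on II and 8 on III. By the looser rule 19 of the 170 on chromosome V were lower (11.2%, against 10.9% of all named probe sets of that chromosome). On IV it was 9 of the 34 (26.5%, against 11.1%), and on II 4 of the 16 (25%, against 10.1%). The shares were 17.4% on X (against 13.8%), 12.5% on III and 10.5% on I (each against 10.1%). Brighter members were 24 of the 34 on IV, 9 of the 16 on II and 81 of the 170 on V. Of the 127 dimmer members 0 were lower by this rule. With at most 2 other genes between them, 163 members formed 45 runs of 2 to 12 genes, a grouping made after the values were seen. By the looser rule 23 of the 163 members in runs were lower (14.1%) and 16 of the 107 outside them (15%). By that rule the runs held only 4 higher members, so that 0 runs held both a higher and a lower member says little about neighbours. Of the 45 runs, 4 held 2 or more lower members, 13 of the 39.

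The 4 runs are shown because they hold several lower members, which makes them a choice by value. The longest has 9 genes, nhr-133, nhr-184, nhr-56, nhr-128, nhr-103, nhr-18, nhr-126, nhr-134 and nhr-96 in order, and all 9 changes were negative. The lower ones by the looser rule were the 4 in the middle, directly next to each other: nhr-128 (log2 change -0.75), nhr-103 (-1.43), nhr-18 (-1.09) and nhr-126 (-0.85), of which nhr-103 and nhr-18 passed the adjusted threshold. Their neighbours on either side, nhr-56 and nhr-134, had changes of -0.23 and -0.16. A run of 7 genes ends in nhr-209 (-0.81), nhr-154 (-0.83), nhr-153 (-0.83) and the called nhr-136 (-0.97). Its first gene nhr-206 had a change of -0.68, and the dim genes nhr-208 and nhr-207 in between had 0.05 and 0.37. In a run of 6, nhr-195 and nhr-143 are direct neighbours and both fell, and in a run of 2 on chromosome I nhr-82 lies 1 gene from nhr-265 (-0.90, adjusted p = 0.0517 in limma). Receptor genes that lie together are often close copies, so a probe set may read RNA of more than 1 of them, and how much was not tested.

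**Figure D5:**
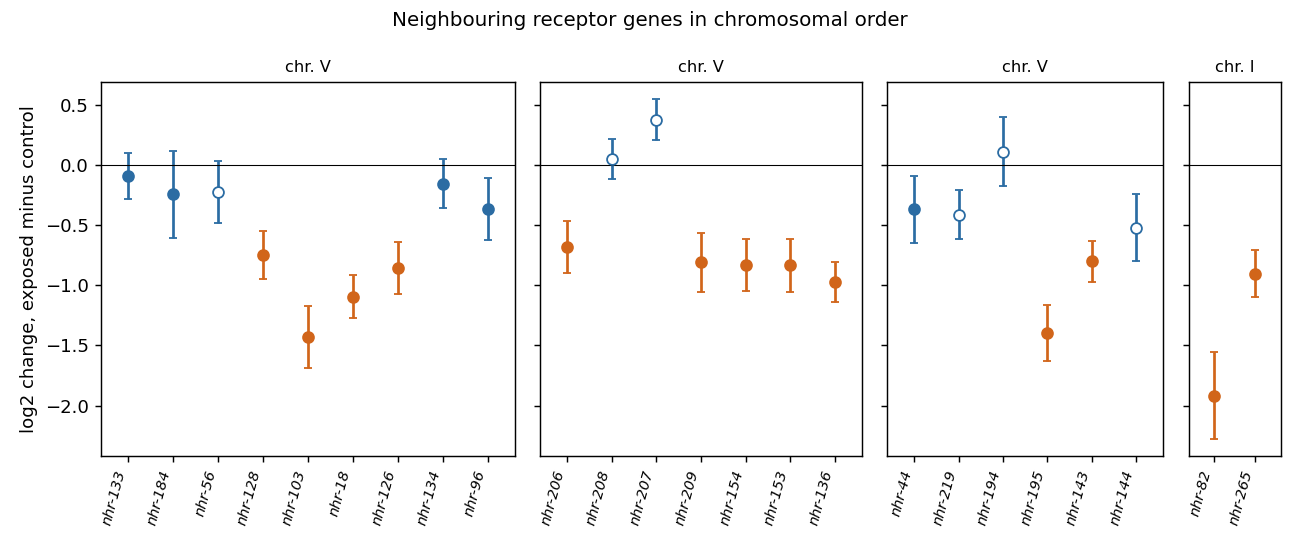
Log2 change, exposed minus control, with its standard error (y axis), for the receptor genes of the 4 runs with at least 2 lower members, in chromosomal order. Orange marks an unadjusted p under 0.05 with a fall of at least 1.5-fold, and open symbols a mean signal under the median of all tested probe sets; apart from nhr-206, the orange genes of a run stand side by side.

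The 4 probe sets with several gene entries had positive changes and did not pass. One carries the symbol nhr-62 under a pair of gene identifiers (log2 change 0.30, adjusted p = 0.386 in limma). A pair of probe sets read nhr-73 together with nhr-245 (0.42 and 0.38, adjusted p = 0.184 and 0.49), and one reads nhr-259 together with nhr-113 (0.46, adjusted p = 0.405).

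Outside the nhr names, the receptor gene sex-1, an X-linked signal element of sex determination, rose. It read 6.88, 6.62 and 7.24 in controls and 8.38, 8.02 and 8.02 in exposed arrays, 2.35-fold higher without overlap (adjusted p = 0.0346 in limma). The call of sex-1 was kept in 12 of the 17 alternatives, but in only 1 of those that leave out a single array. Its adjusted p-values in limma ran from 0.0067 to 0.125. Of the other 5 receptors of this list 0 passed in limma. By unadjusted p, the list held 2 higher and 1 lower, against 10.1% and 12.4% of all probe sets. The lower one was daf-12, at 6.16 ± 0.22 and 5.56 ± 0.26 without overlap (adjusted p = 0.157 in limma). The zinc sensor hizr-1 was at 3.88 ± 0.11 and 4.43 ± 0.18 (adjusted p = 0.134 in limma). Of 5 zinc response genes 0 were called in limma, and 0 passed by unadjusted p, and mtl-2 and ttm-1, a metallothionein and a zinc transporter, had changes of -0.17 and -0.19, both positive with equal array medians. Of 8 genes that make or supply dafachronic acid, the steroid ligand of DAF-12, 0 were called in limma, and 0 passed by unadjusted p. Among them the oxygenase gene daf-36 was at 4.45 ± 0.37 and 3.58 ± 0.78 and the sterol transporter gene ncr-1 at 6.76 ± 0.42 and 6.27 ± 0.30. Of 6 cofactor genes 0 were called in limma (by unadjusted p, 1 higher and 0 lower, against 10.1% and 12.4% of all probe sets). The histone deacetylase gene hda-1 was at 8.14 ± 0.20 and 8.76 ± 0.32 and the SUMO gene smo-1 at 11.05 ± 0.14 and 11.39 ± 0.14.

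Of 9 targets of nhr-49, 0 were called in limma, with a median of 0.32 (by unadjusted p, 2 higher and 1 lower, against 10.1% and 12.4% of all probe sets). The fasting-induced acyl-CoA synthetase gene acs-2 read 8.57, 8.76 and 6.59 in controls and 6.43, 5.79 and 6.06 in exposed arrays (log2 change -1.88 ± 0.55 SE, adjusted p = 0.105 in limma). Control 3 again lay beside the exposed arrays, and without it the change was -2.57 (adjusted p = 0.0074 in limma). Leaving out any other single array did not call acs-2, and its adjusted p in limma reached 0.265 over the 17 alternatives. The beta-oxidation gene ech-1.1 was at 3.66 ± 0.30 and 4.59 ± 0.17 (adjusted p = 0.0619 in limma).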

How the data were processed

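Biotin-labelled cDNA of whole-worm RNA was hybridised to 6 one-colour Affymetrix arrays, 3 per group. Per the submitters' processing notes, the authors ran RMA within Affymetrix Expression Console, which gave the deposited log2 values. For the software versions and the array's genome build, nothing was given in the sources used here. No coordinates are printed, and chromosomes and gene order were read from RefSeq (WBcel235) through the gene identifiers. That the scale is log2 follows from the range of the values. The number of arrays limits the precision, and scan batches were not tested here.

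Values were used as deposited. The 26192 of 29317 probe sets with a gene in the platform table were fitted with limma 3.58.1 in R 4.3.3 (lmFit, eBayes without trend, two-sided, Benjamini-Hochberg over all 26192, threshold 0.05). An exact permutation test of 3 against 3 cannot go below 0.1. RefSeq matched 270 of 270 single-gene members. Named are all called members, the 10 smallest p in each direction, the 8 highest means, 5 role lists, and of 7 related lists the called genes and the 2 smallest p. The receptor gene daf-12 was named outside this rule, beside its hormone pathway. The members and lists were chosen with earlier results of these data known. The fit was tested on simulated data, and 17 alternatives were tried. One control is numbered 3 in its title and 2 in its source label, and the title was followed.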

Additional observations from a re-analysis of the deposited data

How the results depend on the processing

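The counts of called members were the least stable results. By the adjusted p, leaving out 1 array at a time gave 0 to 3 higher and 0 to 17 lower members (2 and 13 with all arrays). The counts were 5 (1.85%, against 5.08% of all probe sets) and 32 (11.9%, against 8.18%) with array weights, which raised the calls across the whole array. They were 4 and 2 with equal array medians. With controls 2 and 3 averaged they were 1 (0.37%, against 0.954%) and 8 (2.96%, against 2.66%). With the replicate number as a block they were 1 and 5, and the 5 lower are 1.85% of the members, against 2.49% of all probe sets. Same-numbered arrays deviated together with r of 0.14, 0.08 and 0.25, and control 2 correlated best with exposed 1 (0.19). Control 3 had negative r with exposed 1 and 2 (-0.23 and -0.10), and exposed 3 with controls 1 and 2 (-0.16 and -0.21). The numbers were not taken as pairs in the main fit, and whether same-numbered samples were handled together was not tested. With eBayes trend 7 were lower (2.59%, against 2.18%), and with all deposited probe sets tested 1 was higher (0.37%, against 0.764%). By the looser rule, equal medians gave 16 higher, and the other alternatives stayed within 1.5 times of 9 higher and 39 lower. Leaving out 1 array gave 7 to 12 higher and 36 to 41 lower. The median log2 change of the members was 0.15 with equal medians and -0.31 without dim probe sets, and -0.10 to -0.06 without 1 array. Equal medians turned the change of nhr-4 to 0.011, nhr-81 to 0.053, nhr-72 to 0.20, nhr-66 to 0.19, nhr-42 to 0.042, nhr-111 to 0.093, nhr-14 to 0.0041, ttm-1 to 0.017, mtl-2 to 0.033 and smf-3 to 0.046. Without both arrays numbered 3, nhr-89 turned to 0.0075, nhr-72 to 0.067, nhr-66 to 0.097, nhr-42 to 0.135, nhr-114 to 0.038 and nhr-111 to 0.18. Array weights turned nhr-72 to 0.0067, nhr-66 to 0.035, nhr-42 to 0.029 and nhr-111 to 0.082, and a second quantile normalization turned nhr-42 to 0.020. Leaving out 1 array gave ranges that crossed 0 for nhr-72 (-0.12 to 0.056), nhr-67 (-0.088 to 0.22), nhr-66 (-0.14 to 0.13), nhr-48 (-0.095 to 0.21), nhr-89 (-0.76 to 0.077), nhr-42 (-0.27 to 0.032), nhr-114 (-0.48 to 0.059), nhr-111 (-0.26 to 0.13) and mtl-2 (-0.28 to 0.0094). None of these genes was called. The cause of these differences was not tested.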
